A study of Mus musculus with 4 samples.

Results

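The subject here is a set of 10 mouse genes, 4 keratins (Krt7, Krt8, Krt18, Krt19) and 6 other markers of epithelium (Upk3b, Upk1b, Msln, Epcam, Muc16, Lgals7), read in granulosa cells (GCs). They were chosen by symbol, with earlier results of these data known, and each matched 1 of the 55385 genes in the count table. GCs, the somatic cells around the oocyte, came from preantral follicles of Kunming mice, an outbred stock, 12 to 14 days old, grown for 6 days in medium with follicle-stimulating hormone. Neurotrophin-4 (NT-4) was added to the medium for the 2 NT4 libraries and left out for the 2 Control libraries. The study compared several doses of NT-4, and by its account the later work used the dose chosen there. Other doses are not covered here. By the study's methods the cells were what remained after oocytes were taken from the complexes, and the number of follicles or mice behind a library is not stated.

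Keratins are the intermediate filament proteins of epithelial cells. A filament is built from pairs of 1 type II chain and 1 type I chain, and Krt8 (type II) with Krt18 (type I) is the usual pair of simple, single-layered epithelia. Krt7 (type II) and Krt19 (type I) are found in ductal and lining epithelia. The ovarian surface epithelium, the mesothelium-like sheet over the ovary, is known for all of these keratins together with uroplakins (Upk3b, Upk1b), mesothelin (Msln), the large mucin Muc16 (CA125) and galectin-7 (Lgals7). Granulosa cells, which also form an epithelium without vessels, are known to hold Krt8 and Krt18, and Epcam, an epithelial adhesion molecule, is also made by oocytes. The question asked of the data was which of these transcripts were present in GC libraries and which were not, and whether any differed with NT-4.

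The libraries held 49520092 to 78704020 counts, an estimated 12380023 to 19676005 read pairs at about 4 counts each. Levels are given as CPM, the counts scaled to the library sizes of the edgeR fit. The upper limit that a count of 0 allows, called the floor here, was set at 3 read pairs (12 counts), or 0.156 to 0.239 CPM depending on the library. The floors, and the Wilson intervals of shares given further on, describe counting error alone and take each read pair as a separate molecule. Reads copied by PCR are not separate molecules, so the floors can be too low and the intervals too narrow. Granulosa markers were present in every library, 20 of 20 at a mean of at least 1 CPM, and their summed level was 14820 to 21880 CPM. Among them Inha, the inhibin alpha subunit, was at 5821 to 8870 CPM and Foxl2, a transcription factor of GC identity, at 161.7 to 253.4 CPM.

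Of the 10 genes, 2 were clearly expressed. In Control 1 and Control 2, Krt8 stood at 29.7 and 26.2 CPM, and in NT4 1 and NT4 2 at 33.2 and 27.7 CPM. Krt18 stood at 11.2 and 7.92 CPM in the same Control libraries and at 9.48 and 9.91 CPM in the NT4 ones. These are far above the floor in all 4 libraries, and the groups overlapped for both genes. None of the other 8 genes reached a mean of 1 CPM, and only Lgals7 was above the floor in all 4 libraries. The members that mark surface epithelium were thus low, and most were at or near the floor.

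**Figure D1:**
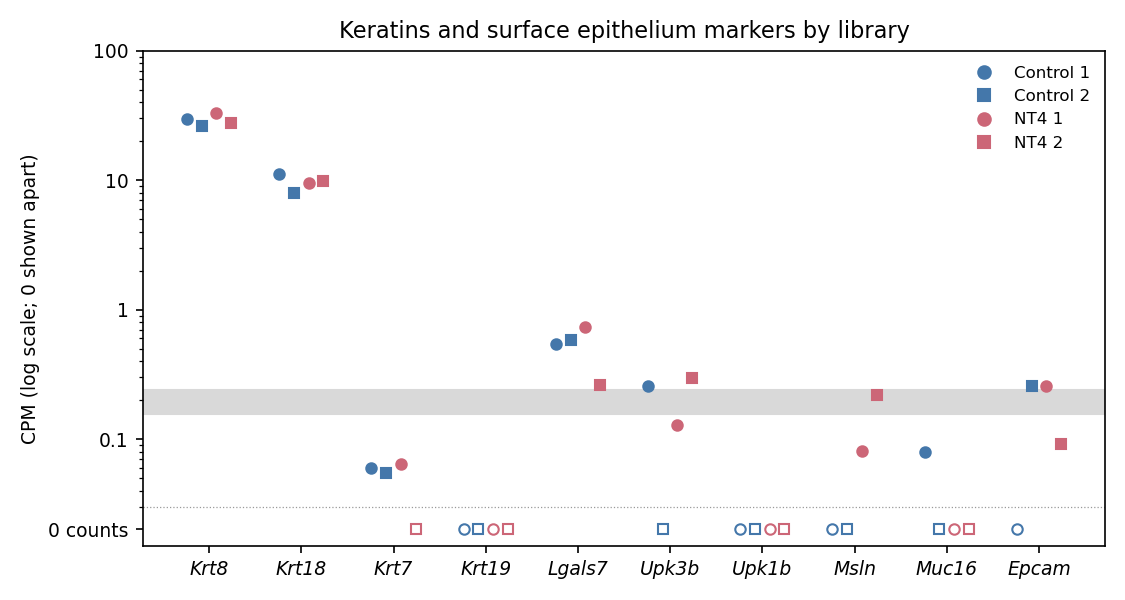
Level of each of the 10 genes in each library, in CPM on a log axis, with libraries at 0 counts drawn as open symbols below the dotted line and the floor of 0.156 to 0.239 CPM as a grey band. Krt8 and Krt18 lie between 7.92 and 33.2 CPM in every library, Lgals7 above the band and the other 7 genes in or below it or just above.

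Krt8 and Krt18 are neighbours. Krt8 (ENSMUSG00000049382) lies on GRCm38 chromosome 15 at 101996698 to 102004482 on the minus strand, and Krt18 (ENSMUSG00000023043) at 102028180 to 102032027 on the plus strand. They point away from each other across 23697 bases, although Krt18 is a type I gene within the type II cluster and the other type I keratins sit on chromosome 11. Krt7 (chromosome 15, 101411043 to 101430313, plus strand) is in the same cluster and was at or under 4 counts in each library. The promoters of these 3 genes are shown because they set the expressed pair beside a near-silent keratin of the same cluster. Each runs from 250 bases before to 50 after the start that RefSeq gives, on GRCm38.p6, and capitals mark matches to the motifs searched. For all 3 genes the RefSeq start differs from the gene end given above. Which start was used in these cells was not tested. The windows are chr15:102004293-102004592 (minus strand), chr15:102027966-102028265 (plus strand) and chr15:101412153-101412452 (plus strand), in this order:
Krt8: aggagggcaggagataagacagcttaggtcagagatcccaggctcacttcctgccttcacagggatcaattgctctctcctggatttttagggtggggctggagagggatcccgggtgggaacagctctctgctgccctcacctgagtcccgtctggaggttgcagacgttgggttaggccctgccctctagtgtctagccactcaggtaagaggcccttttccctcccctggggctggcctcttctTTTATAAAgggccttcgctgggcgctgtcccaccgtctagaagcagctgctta
Krt18: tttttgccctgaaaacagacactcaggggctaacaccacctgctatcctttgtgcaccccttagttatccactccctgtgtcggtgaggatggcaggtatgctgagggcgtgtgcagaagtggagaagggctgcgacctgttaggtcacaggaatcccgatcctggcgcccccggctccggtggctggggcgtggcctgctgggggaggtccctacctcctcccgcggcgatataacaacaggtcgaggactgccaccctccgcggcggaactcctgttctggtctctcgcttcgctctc
Krt7: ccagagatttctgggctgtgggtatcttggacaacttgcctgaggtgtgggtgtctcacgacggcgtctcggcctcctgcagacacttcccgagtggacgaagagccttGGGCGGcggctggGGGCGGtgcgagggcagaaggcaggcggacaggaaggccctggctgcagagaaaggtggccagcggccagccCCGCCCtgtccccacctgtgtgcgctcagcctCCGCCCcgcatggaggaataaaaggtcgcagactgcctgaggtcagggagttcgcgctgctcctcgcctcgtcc

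The 5 motifs were searched on both strands, and their share was counted among 32851 RefSeq promoters of the same length. The box bound by TATA-binding protein, TATAAA, occurs in 13.6% of them. The GC box bound by Sp factors, GGGCGG, occurs in 35.7%. The AP-1 site with letters TGANTCA occurs in 7.81%, the NR5A receptor site with letters AAGGTCA in 4.72%, and the forkhead site with letters TGTTTAC in 3.65%. The Krt8 window held the TATA box letters on both strands, starting 3 bases and 1 base before the RefSeq start and overlapping each other. The Krt18 window held none of the 5 motifs. The Krt7 window held 4 GC boxes, and its GC content was 66.3%, against 58.0% for Krt8, 61.3% for Krt18 and a median of 52.7% over all promoters. Of the other members, 4 had an entry, and GC boxes stood once in the windows of Epcam and Lgals7 while Upk3b and Muc16 held no motif. A match is a stretch of letters and not a measured site.

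The level of Krt8 exceeded that of Krt18 per length of transcript. With CPM divided by kilobases of exon, Krt8 averaged 14.9 ± 1.57 and Krt18 6.69 ± 0.93 CPM per kilobase (SD, n = 4 libraries). The ratio of Krt8 to Krt18 was 1.96 and 2.42 in Control 1 and Control 2, and 2.57 and 2.05 in NT4 1 and NT4 2. Krt8 was the higher gene in 4 of 4 libraries, and the ratio did not separate the groups. It averaged 2.19 ± 0.33 in Control and 2.31 ± 0.37 in NT4 (SD, n = 2), with an exact two-sided permutation p of 0.667, where 2 libraries against 2 cannot go below 0.333. Over the whole family the sums of the chain types were closer to each other. Type II keratins summed to 14.8 to 18.6 CPM per kilobase and type I keratins to 10.2 to 13.3, a ratio of 1.28 to 1.45 by library.

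Counts of Krt8 carry some uncertainty. The processed pseudogene Krt8-ps on chromosome 7 matched Krt8 at 98.6% identity over 941 bases, so reads could be split between them. It held 42 and 44 counts in the Control libraries and 16 and 19 in the NT4 libraries, which is 0.772% to 2.82% of those of Krt8. Krt8 also shares 101 exon bases with the antisense lincRNA Gm36026, which had at most 15 counts. The nearest copies of Krt18 were the pseudogenes Gm5200 and Gm17847, both at 0 counts in all 4 libraries.

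The remaining member keratins were at the limit of detection. Krt7 had 3 and 4 counts in the Control libraries and 4 and 0 in the NT4 libraries, under the floor in each. It also shares stretches of 200 to 264 bases with 10 other genes, at 85.5% to 88.0% identity. Krt19 (ENSMUSG00000020911, chromosome 11, 100140810 to 100148665) was without a count in every library, so that a level up to the floor remains possible. In these libraries the keratins of the set thus fell apart into a detected pair and a pair at or under the floor.

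The wider family was then examined, to place the pair among other keratins. Of 54 keratins listed, 53 matched the table, 33 of them had 0 counts in all libraries and 6 reached a mean of 1 CPM. Krt8 and Krt18 together took 69.1% of keratin read pairs in Control 1 (95% Wilson interval 65.7% to 72.4%), 69.1% in Control 2 (66.0% to 72.0%), 67.9% in NT4 1 (64.9% to 70.7%) and 68.2% in NT4 2 (65.3% to 70.9%). These intervals overlap across libraries and cover counting error only, with each read pair taken as a separate molecule. The mean share was 69.1% ± 0.035 in Control and 68.0% ± 0.20 in NT4 (SD, n = 2), and the groups did not overlap, with an exact two-sided permutation p of 0.333, the smallest this design allows. Per kilobase the groups did overlap, with shares of 75.4% in both Control libraries and 73.9% and 75.9% in NT4 1 and NT4 2. Keratins known from layered epithelia were uneven. Krt5 and Krt14 of basal cells and Krt4 and Krt13 of mucosa had 0 counts throughout, while Krt1 of the epidermis had 8 to 44 counts and its partner Krt10 was at 3.75 to 4.02 CPM.

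After Krt8 and Krt18, the order by level per kilobase was Krt20 (3.13 ± 1.14 CPM per kilobase), Krt10 (1.84 ± 0.07) and Krt79 (0.90 ± 0.10) (SD, n = 4 libraries). In each step of this order down to Krt79 the 4 values of a gene did not overlap those of the next. Below Krt79 neighbours overlapped, beginning with Lgals7 at 0.57 ± 0.22. Krt20, a type I keratin best known from gut and bladder lining, stood at 6.85 and 4.26 CPM in Control 1 and Control 2 and at 8.76 and 4.26 CPM in NT4 1 and NT4 2. Libraries numbered 1 were the higher in both groups, whatever the treatment. Krt10, known from the suprabasal epidermis, was nearly level at 3.75 to 4.02 CPM, and Krt79, known from sebaceous ducts and hair follicles, was at 3.66 to 4.66 CPM.

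**Figure D2:**
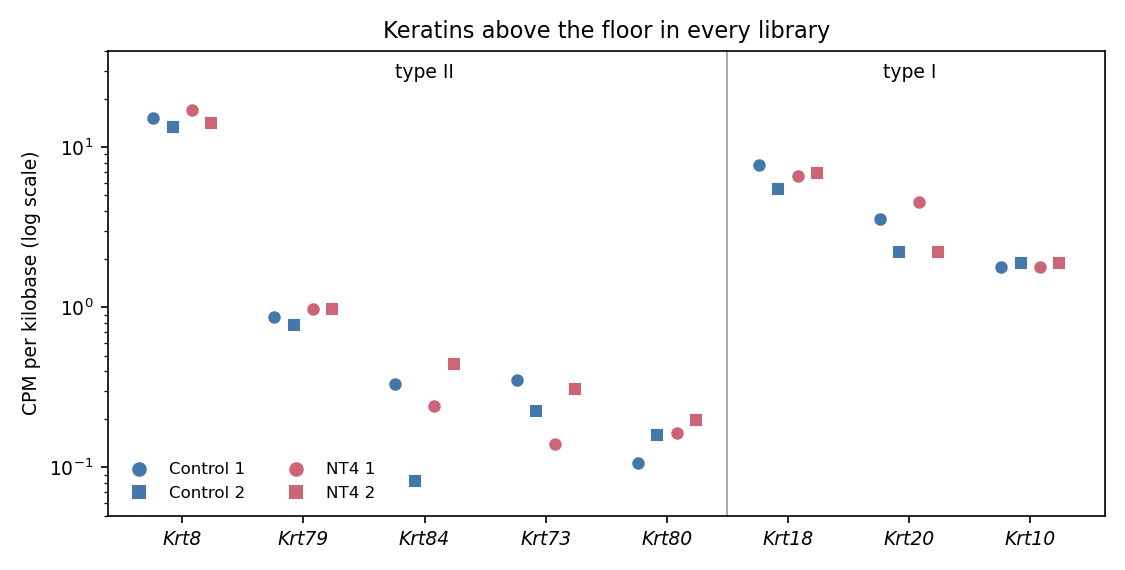
CPM per kilobase of exon on a log axis for the 8 keratins above the floor in all 4 libraries, type II on the left and type I on the right, 1 point per library. Krt8 (mean 14.9) and Krt18 (6.69) lead their types, and Krt20 (3.13) and Krt10 (1.84) follow among type I.

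The surface epithelium markers were taken next, in order of what they do. Among uroplakins, membrane plaque proteins of urothelium and mesothelium, Upk3b (ENSMUSG00000042985, chromosome 5, 136038496 to 136046487) had 13 and 0 counts in Control 1 and Control 2, and 8 and 23 in NT4 1 and NT4 2. Upk1b (chromosome 16, 38773184 to 38800328) had none in any library, with the same upper limit as Krt19. Upk3b exceeded the floor in Control 1 and NT4 2 only, so its 2 highest libraries belonged to different groups. Of all 6 uroplakin genes listed, 0 reached a mean of 1 CPM.

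Msln (chromosome 17, 25748613 to 25754378), the glycoprotein of mesothelial surfaces that binds Muc16, had 0 and 0 counts in the Control libraries and 5 and 17 in NT4 1 and NT4 2. It passed the floor in NT4 2 alone, at 0.221 CPM, and a level up to 0.239 CPM is possible in Control 1. The groups did not overlap, but no fold is given and a difference was not detectable at this depth. Muc16 (chromosome 9, 18495455 to 18674530) had 4 counts in Control 1 and 0 in the other libraries, with a longest transcript of 25437 bases, the longest among the 10 genes. Membrane mucins in general were low, with 0 of 6 at a mean of 1 CPM.

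Lgals7 (ENSMUSG00000053522, chromosome 7, 28863853 to 28866284), a galectin of stratified epithelia, stood at 0.538 and 0.583 CPM in Control 1 and Control 2 and at 0.738 and 0.260 CPM in NT4 1 and NT4 2. NT4 held both its highest and its lowest library. It rested on 20 to 46 counts in a library. The gut galectin Lgals4 was at 1.61 to 2.45 CPM, and the widely expressed Lgals1 at 119 to 211 CPM. Epcam (chromosome 17, 87635979 to 87651129) had 0 and 19 counts in Control 1 and Control 2 and 16 and 7 in NT4 1 and NT4 2, above the floor in 2 libraries, 1 of each group.

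Summed over the 7 surface markers (Krt7, Krt19, Upk3b, Upk1b, Msln, Muc16, Lgals7), the level was 0.936 and 0.637 CPM in Control 1 and Control 2 and 1.01 and 0.778 CPM in NT4 1 and NT4 2. Krt8 with Krt18 summed to 40.9, 34.1, 42.7 and 37.6 CPM in the same libraries, 42.3 to 53.5 times as much. Lgals7 alone made up 33.3% to 91.5% of the surface sum. Without it, a choice made after seeing the data, the other 6 genes summed to 0.399 and 0.0542 CPM in Control 1 and Control 2 and to 0.273 and 0.519 CPM in NT4 1 and NT4 2. Krt8 with Krt18 was then 72.4 to 156.6 times as high in 3 libraries, and no ratio is given for Control 2, where the 6 genes held 4 counts. Of the 7 markers, Krt19 and Upk1b were at 0 counts in all 4 libraries and Lgals7 was above the floor in all 4.

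The lists of other possible cell sources gave a different picture. Theca and stroma markers summed to 1391 and 1370 CPM in Control and 1979 and 1652 CPM in NT4, with 12 of 13 at a mean of at least 1 CPM, and Cyp17a1, the androgen-making enzyme of theca cells, at 72.2 to 173.3 CPM. Oocyte markers summed to 134.7 and 95.6 CPM in Control and 111.5 and 109.6 CPM in NT4, 12 of 12 at that mean, with Gdf9, an oocyte growth factor, at 23.0 to 30.8 CPM. Endothelial markers summed to 26.3 to 35.8 CPM, with 4 of 9 at that mean, and Cdh5 alone was at 16.4 to 25.4 CPM. Macrophage markers summed to 2.73 to 4.28 CPM, with 1 of 9 at that mean. Granulosa markers thus came with transcripts of theca or stroma and of oocytes. Which of these cells the Krt8 and Krt18 reads came from was not tested. In bulk RNA, fewer cells of a type and less RNA per cell cannot be told apart.

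**Figure D3:**
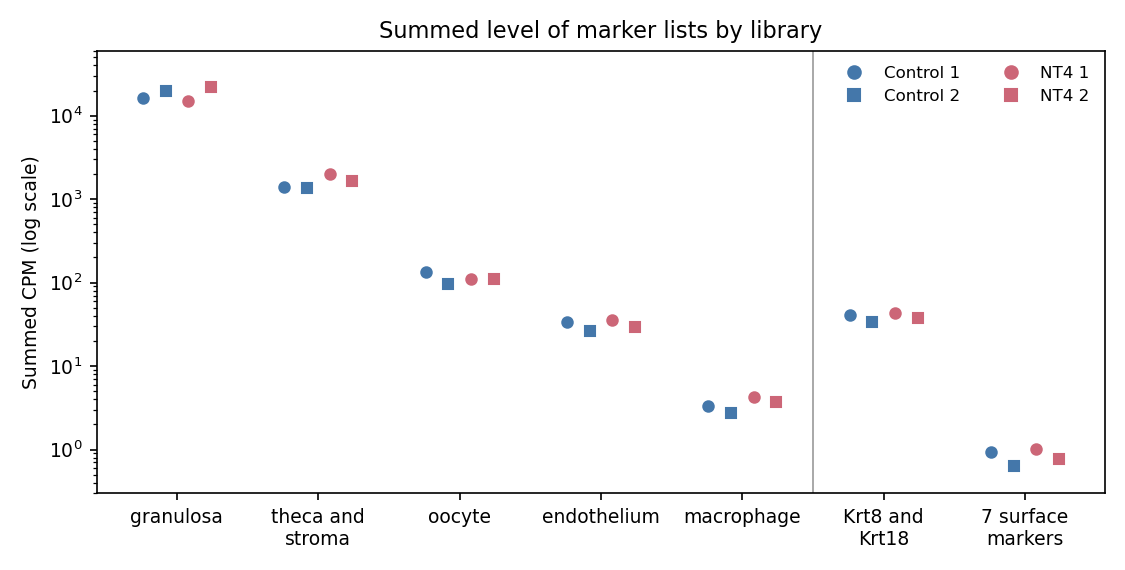
Summed CPM of each marker list by library on a log axis, with Krt8 plus Krt18 and the 7 surface markers at the right. The surface markers sum to 0.637 to 1.01 CPM, while Krt8 with Krt18 sums to 34.1 to 42.7 CPM.

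A second list, of 18 further genes linked to surface epithelium and mesothelium, had 9 at a mean of at least 1 CPM. The 3 highest per kilobase were Aldh1a1 (155 ± 21.1 CPM per kilobase), Ezr (44.8 ± 1.04) and Rarres2 (4.98 ± 1.16) (SD, n = 4 libraries). Aldh1a1 makes retinoic acid and Ezr links membranes to actin, and neither is restricted to that epithelium. Above the floor in all 4 libraries were 13 of the 18, and 1 was at or under it in all. Of names tied more closely to mesothelium, chosen here after their values were seen, Aldh1a2, another retinoic acid enzyme, was at 4.88 to 7.02 CPM. Bnc1, a transcription factor, was at 1.16 to 2.63 CPM, Nkain4 at 0.258 to 1.81 CPM, Gpm6a at 0.754 to 1.25 CPM and Lrrn4 at 0 to 0.258 CPM. Which cells these transcripts came from was not tested, and the libraries also held transcripts of oocytes and of theca or stroma. The part of surface epithelium or mesothelium in the Krt8 and Krt18 values was not tested either.

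Genes that hold keratin filaments at cell junctions ranged from undetected to abundant. Of 17 keratin filament partners, 9 reached a mean of 1 CPM, 10 were above the floor in all 4 libraries, and the 3 highest were Dsp (36.2 ± 3.43 CPM per kilobase), Dst (12.8 ± 2.80) and Pkp4 (12.3 ± 0.99) (SD, n = 4 libraries). Dsp, desmoplakin, ties intermediate filaments to desmosomes, and it stood at 305 to 382 CPM. Pkp1, Pkp3 and Dsg3, which are desmosome genes, had 0 counts in all libraries. Evpl, a partner known from layered epithelia, had 45 to 67 counts, Ppl 0 to 26 and Dsc3 0 to 26. Among 12 other intermediate filament genes, Lmnb1 (61.5 ± 2.62 CPM per kilobase) and Lmna (15.8 ± 4.94) form the nuclear lamina. Vim, the mesenchymal filament protein also known in GCs, stood between them at 47.5 ± 3.87 CPM per kilobase, above Krt8 at 14.9.

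Among epithelial adhesion genes, N-cadherin (Cdh2) was at 219 to 297 CPM, while E-cadherin (Cdh1), the cadherin of most epithelia, was at 0.488 to 1.79 CPM. The 3 highest of 15 per kilobase were F11r, a junctional adhesion molecule, at 73.2 ± 3.20, Cdh2 at 31.3 ± 4.16 and Tjp1, a tight junction scaffold, at 21.4 ± 1.39 CPM per kilobase (SD, n = 4 libraries). Cldn7, a claudin that binds Epcam, had 0 counts in all 4 libraries.

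The effect of NT-4 was tested last. The edgeR quasi-likelihood test was fitted on the whole table, and 5 of the 10 genes passed its filter on low counts (Krt8, Krt18, Lgals7, Upk3b, Epcam). At an adjusted p of 0.05 it called 0 of the 5, against 0% of the 19259 genes tested. At an unadjusted p under 0.05 it also found 0 of the 5, against 1.99% of all genes, and 0 of the 5 joined such a p to a 2-fold change, against 1.08%. Nor did DESeq2, edgeR's exact test or limma voom call any of the 5, against 65, 59 and 0 of the 19259 genes in the same order. The groups did not overlap in 0 of the 5, against 26% of all genes. The genes not tested were Krt7, Muc16 and Msln, with few counts, and Krt19 and Upk1b, with none.

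The mean of Krt8 was 27.9 ± 2.52 CPM for Control and 30.5 ± 3.94 CPM for NT4 (SD, n = 2). Its log2 fold change of NT4 over Control was 0.12 (SE 0.17, 95% interval −0.30 to 0.55), with an edgeR adjusted p of 0.9999. For Krt18 the means were 9.54 ± 2.29 CPM (Control) and 9.70 ± 0.30 CPM (NT4) (SD, n = 2), with a log2 fold change of 0.03 (SE 0.23, interval −0.55 to 0.60) and the same edgeR adjusted p. Both differences were smaller than the spread between replicates, and both intervals exclude a change of 2-fold. The direction was not stable: Krt8 was at −0.02 without NT4 1, and Krt18 at −0.20 without Control 2 and at −0.008 without NT4 2. The summed level of theca and stroma markers was higher in both NT4 libraries, and its part in these values was not tested.

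For the low genes the intervals were wide. Lgals7 had a log2 fold change of −0.18 (SE 0.69, 95% interval −1.93 to 1.58), Upk3b of 0.77 (SE 1.69, −3.49 to 5.04) and Epcam of 0.37 (SE 1.62, −3.72 to 4.46), each with an edgeR adjusted p of 0.9999. A change of several fold in either direction would not have been detectable. Leaving out a library turned the sign of each, to 0.39 for Lgals7 without NT4 2, to −0.26 for Upk3b without Control 2, and to −0.58 and −0.54 for Epcam without Control 1 and without NT4 1. Of Upk3b and Epcam, 1 Control library each was at 0, and with all libraries kept limma voom put them at 2.67 and 1.24.

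**Figure D4:**
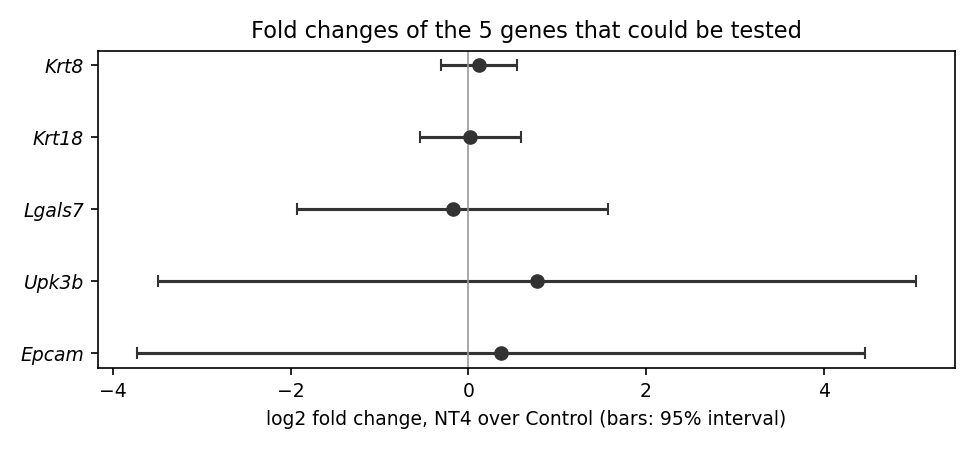
Log2 fold change of NT4 over Control from the edgeR fit for the 5 genes tested, with bars for the 95% interval. Krt8 (0.12) and Krt18 (0.03) lie near 0 with bars inside −0.55 and 0.60, while Upk3b and Epcam reach from below −3.49 to above 4.46 between them.

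Krt8 was higher in both libraries numbered 1 than in both numbered 2. It was at 29.7 and 33.2 CPM in the libraries numbered 1 and at 26.2 and 27.7 CPM in those numbered 2. Between libraries of the same number, the log2 ratio of NT4 to Control was 0.16 and 0.08 for Krt8, and −0.235 and 0.324 for Krt18. The labels do not say whether a number marks a shared culture, so this was not taken as a pairing. The values are a description with no test.

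Gene lists around the pair showed no call either. Type II keratins had 7 genes tested, 0 called, and a median log2 fold change of 0.25, and type I keratins had 5 tested, 0 called, and 0.03. With a library left out, the type II median ranged from 0.05 to 0.33 and the type I median from −0.13 to 0.05. For keratin filament partners the median was −0.09 over 14 genes with 0 called, for epithelial adhesion genes 0.16 over 13 with 0 called, and for the 18 further surface and mesothelium genes 0.12 over 16 tested with 0 called. With a library left out, these medians ranged from −0.27 to 0.14, −0.04 to 0.27 and −0.10 to 0.14 in the same order, so none kept its sign. Granulosa markers had a median of 0.03 over 20 genes, oocyte markers −0.03 over 12 and theca and stroma markers 0.39 over 13, also with 0 called. With a library left out, these 3 medians ranged from −0.11 to 0.08, −0.27 to 0.18 and 0.35 to 0.47 in the same order. Of the 13 theca and stroma markers, 12 were fitted higher in NT4, against 9817 of the 19259 genes tested. An unadjusted edgeR p under 0.05 was reached by 5 of them, against 1.99% of all genes. Markers of the same cells can vary together, so the 13 are not separate pieces of evidence. They were not tested as a set. The median over all genes tested was 0.0045, and 0 of them were called.

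The genes whose pattern over the 4 libraries lay closest to that of Krt8 with Krt18 were Dynlt3, a dynein light chain, Mt1, a metallothionein, and Eif3j1, a translation initiation factor. Likeness was the root mean square difference of centred log2 CPM, which was 0.0122, 0.0123 and 0.0151. With only 4 libraries, and a pattern spanning 0.325 log2 units, 943 of the 10056 genes compared lay within 0.1, so these names describe the libraries and no more. No surface marker of the set reached the level set for the same comparison.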

How the data were processed

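Bulk RNA sequencing was done on 4 GC libraries, 2 per group by the GEO titles. By the study's methods, the authors discarded reads with adaptors or low quality (Cutadapt), mapped them with HISAT2 (mm10, per the labels) and estimated expression with StringTie and ballgown. Estimated counts per gene were deposited by the authors, whole and not normalized. The study's methods state that second strands were U-labelled and treated with UDG enzyme before PCR. How whole counts were made, and whether counting used strand, is not given in the sources used here. Of genes at 1 to 12 counts, 45.4% to 46.2% sat at 4, 8 or 12, and the rest did not. A read pair was taken to add 4 counts, which is an assumption. The floor, the numbers of read pairs and the Wilson intervals rest on it.

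Genes were matched by Ensembl identifier to GENCODE M21 (GRCm38). Counts were tested in R 4.3.3 with edgeR 4.0.16 (quasi-likelihood, TMM, default filter, group alone, two-sided), adjusted by Benjamini-Hochberg over 19259 genes. The procedure was also run on simulated data, and no outcome of that run is given here. DESeq2 1.42.0 and limma 3.58.1 served as alternatives. Lengths are merged exons. Copies were sought with BLAST 2.17.0 (85% identity over 200 bases), intervals and permutations with SciPy 1.17.1. Promoters are from RefSeq (GRCm38.p6), for 7 of 10 genes.

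All 10 genes were described whatever their values. Of other lists, genes at a mean of 1 CPM were counted and the highest 3 per kilobase named. The patterns closest to Krt8 with Krt18 were sought among genes at 10 CPM, with 0.5 added before log2. Members and lists were chosen with earlier results of these data known. The replicates of a group differed by more than sampling noise (chi-square per degree of freedom 16.9 and 32.1). The study states that both libraries of a group came from independent experiments and that groups were run in parallel. Which libraries shared an experiment is not stated in the labels.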

Additional observations from a re-analysis of the deposited data

How the results depend on the processing

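No alternative called a member, with adjusted p of 0.91 to 1.0, and of 75 fold changes of tested members 68 kept their direction and 7 turned, each with a library left out. With a library left out, log2 fold changes ranged from −0.0204 to 0.25 for Krt8, −0.20 to 0.29 for Krt18, −1.11 to 0.39 for Lgals7, −0.26 to 6.94 for Upk3b and −0.58 to 6.47 for Epcam. The upper ends of Upk3b and Epcam were fitted against a group at 0 counts and are no bound. The number of members whose groups did not overlap was 1 of 8 with no filter (Msln), against 23.2% of all genes, and 2 to 5 with a library left out, against 56.9% to 68.7% of all genes, where 1 library stands for a group and overlap is less likely by construction.

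Over all genes, 0 were called at an adjusted p of 0.05 and 208 met the study's criterion of a 2-fold change with an unadjusted p under 0.05. With no filter these were 10 and 345. The DESeq2 Wald test called 65 and edgeR's exact test 59. The criterion count was 87 with a filter at 1 CPM, 119 with counts divided by 4 and 107 in protein-coding genes, where fewer genes were tested. With a library left out, calls ranged from 0 to 37 and the criterion count from 341 to 512. For the other shifts the cause was not tested. With the replicate number as a block, 0 genes were called, 580 had an unadjusted p under 0.05 against 383, and the criterion count was 180. In that fit Krt8 was at 0.12, Krt18 at 0.05, Lgals7 at −0.34, Upk3b at 1.62 and Epcam at 1.01. Limma voom gave −0.44 for Lgals7, 2.67 for Upk3b and 1.24 for Epcam. Same-numbered deviations correlated at 0.193 across genes, and 2 numbers cannot establish a pairing. Adding Krt8-ps to Krt8, chosen after seeing the data, gave Krt8 0.10. Changes in the 8 genes under 1 CPM could not be resolved, and low depth was not separated from the spread between replicates.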

Other observations

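Among keratin names outside the set, Krt78 and Krt8-ps had an unadjusted p under 0.05 in the edgeR test and were singled out after their values were seen. Krt78, an epidermal type II keratin, was at 0.418 and 0.163 CPM in the Control libraries, with no count in either NT4 library (edgeR unadjusted p = 0.014). It passed the floor in 1 library alone, and the floor of NT4 1, 0.193 CPM, lies above the value of Control 2, so a difference was not detectable at this depth. Krt8-ps stood at 0.837 and 0.597 CPM without NT-4 and at 0.257 and 0.247 CPM after it, a log2 fold change of −1.50 (SE 0.59, edgeR unadjusted p = 0.049). Both had an edgeR adjusted p of 0.9999.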
